A study of Mus musculus with 12 samples.

Results

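The corticotropin-releasing factor (CRF) system was described here through 5 genes, of the 47729 genes with estimated counts in the amygdala of C57/BL6 mice. The genes were chosen by name, as the entries whose Ensembl ID carries one of the 5 symbols in the GENCODE M21 annotation, a rule that uses no measured value, although the genes were proposed with earlier results of these data known. Crh and Ucn3 encode the peptides CRF and urocortin 3, Crhr1 and Crhr2 the CRF receptors, and Crhbp the secreted CRF-binding protein. The mice were 12 nulliparous females of 1 inbred strain, with no transgene and no drug treatment, whose bilateral amygdalae were cut from slices after rapid decapitation and sequenced with 1 library per mouse in a single batch. Behavior was tested in the elevated plus maze (EPM) at 9 weeks of age, in the light/dark test (LD) at 10 weeks and in the three-chamber social interaction test (SIT) at 11 weeks. The labels name a predicted anxiety state for 11 mice. These were 3 less anxious mice (mice 3, 7 and 12), 4 anxious mice (mice 1, 4, 8 and 11) and 4 more anxious mice (mice 2, 6, 9 and 10). Mouse 5 carries no such label. According to the study's methods it was removed as an outlier in a principal component analysis of expression. Here it entered only alternatives and observations named as such.

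The predicted states limit what a group comparison can show. According to the study's methods they are tertiles of the second principal component (PC2) of these same expression data, so that genes that follow PC2 differ between the groups by construction, and group tests of any gene are no independent evidence. In the PC2 recomputed here, mouse 6, which is labelled more anxious, had a score of -0.28, below the anxious mice 1 (4.397) and 11 (2.88). The labels were kept as given, and the contrasts of the more anxious group are also given without mouse 6 for the 5 genes. The behavior measures were taken independently of the RNA. Both kinds of comparison were made for each gene, to learn whether transcript levels of the CRF system varied with the predicted state and with the behavior of the individual mouse.

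In the CRF system, peptides released from neurons act on class B G protein-coupled receptors. CRF itself binds mainly CRF1, the product of Crhr1, while urocortin 3 is selective for CRF2, the product of Crhr2. Both receptors couple chiefly to Gs, adenylyl cyclase and protein kinase A, and are switched off by G protein-coupled receptor kinases and β-arrestins. The binding protein captures CRF outside the cell and lowers the free peptide. In the rodent amygdala, Crh is known from neurons of the central nucleus, Crhr1 from basolateral neurons, and Ucn3 and Crhr2 from the medial nucleus. The system is best known for its part in the stress response and in anxiety-like behavior.

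The genes lie on 4 chromosomes and overlap no other annotated gene (GRCm38, GENCODE M21). Crh (ENSMUSG00000049796) spans chr3:19693401-19695396 on the minus strand, with a single transcript of 1320 bases. Ucn3 (ENSMUSG00000044988) spans chr13:3940688-3945349 on the minus strand, also with a single transcript, of 1478 bases. Crhr1 (ENSMUSG00000018634) spans chr11:104132855-104175523 on the plus strand (2460 bases of transcript). Crhr2 (ENSMUSG00000003476) spans chr6:55090049-55133016 on the minus strand and has 9 annotated transcripts, the longest of 2924 bases. Crhbp (ENSMUSG00000021680) spans chr13:95431371-95444924 on the minus strand, with 2 transcripts, the longest of 1779 bases.

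Promoter windows of 250 bases, each before an annotated transcription start, are shown for Ucn3, Crhr1 and Crhr2. Ucn3 varied most between mice, Crhr1 varied least and Crhr2 had the lowest p-values against behavior. The windows are RefSeq promoter sequences (GRCm38.p6), 5′ to 3′ on the strand of the gene, at chr13:3945350-3945599 (minus), chr11:104132531-104132780 (plus) and chr6:55133017-55133266 (minus). The Crhr1 window ends upstream of the GENCODE start of the gene, and Crhr2 has 9 annotated transcripts. Which start is used in the amygdala was not determined. Capitals mark matches, on either strand, to the cAMP response element TGACGTCA, the TATA box TATAAA, the GC box GGGCGG or the glucocorticoid response element core AGAACA.
Ucn3: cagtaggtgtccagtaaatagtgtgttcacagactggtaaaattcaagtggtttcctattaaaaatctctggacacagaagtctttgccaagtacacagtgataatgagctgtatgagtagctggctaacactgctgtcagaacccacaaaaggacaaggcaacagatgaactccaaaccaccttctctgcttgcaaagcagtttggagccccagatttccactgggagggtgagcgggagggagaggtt
Crhr1: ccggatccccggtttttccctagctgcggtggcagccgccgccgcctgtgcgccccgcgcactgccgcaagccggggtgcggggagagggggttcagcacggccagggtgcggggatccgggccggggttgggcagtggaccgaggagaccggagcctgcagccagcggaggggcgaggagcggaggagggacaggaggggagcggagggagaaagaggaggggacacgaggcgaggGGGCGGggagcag
Crhr2: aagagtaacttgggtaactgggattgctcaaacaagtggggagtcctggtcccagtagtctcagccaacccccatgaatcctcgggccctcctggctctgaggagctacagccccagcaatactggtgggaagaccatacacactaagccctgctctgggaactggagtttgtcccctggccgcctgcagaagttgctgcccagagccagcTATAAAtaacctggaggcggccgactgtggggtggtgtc

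Of the 5 genes, 4 had a RefSeq promoter entry (all except Crh), and the composition of these windows differed widely. The Crhr1 window holds 25 CpG dinucleotides and has a GC content of 74.8%, higher than in 95.8% of 32851 promoter windows of the same length. The Ucn3 window holds 1 CpG at a GC content of 46.4%, higher than in 28.4% of the windows, and the median over all windows was 52.4%. Crhr2 (57.6%, 4 CpG) and Crhbp (47.2%, 9 CpG) lay between them. The Crhbp window (chr13:95444832-95445081, minus) extends past the GENCODE start of the gene (95444924) into the annotated gene. The GC box in the Crhr1 window is a sequence found in 32.7% of all windows, and the TATAAA in the Crhr2 window one found in 12.4%. No match to these letters was found in the Ucn3 and Crhbp windows. The cAMP response element, present in 1.55% of all windows, and the AGAACA core, present in 16.1%, were in none of the 4. These matches describe the letters only, and no binding was measured.

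Depth was similar among mice, with 31745630 to 45142355 estimated counts in the 11 grouped mice and 32682574 in mouse 5. All 5 genes were detected in each of the 11 grouped mice, with between 83 counts (Ucn3 in mouse 9) and 1492 counts (Crhbp in mouse 9). Levels are given below as CPM (each count scaled to 1000000 counts in a library) after TMM scaling over the 11 mice. The tissue carried markers of each of its expected parts, and their levels varied between mice. Markers of the central nucleus (5 genes, summed) ranged from 90.2 to 179 CPM. Those of basolateral neurons (5 genes) ranged from 992 to 1849 CPM, with Slc17a7 alone at 679 to 1402 CPM. Markers of the adjoining striatum (6 genes) ranged from 123 to 529 CPM, with Adora2a, a marker of striatopallidal neurons, between 1.41 and 47.7 CPM. The medial amygdala and hypothalamus list (6 genes) ranged from 64.3 to 155 CPM, with Slc17a6 alone at 45.2 to 127 CPM. Sim1, a transcription factor of these regions, was between 0.42 and 28.0 CPM. The basolateral and medial sums are thus carried largely by Slc17a7 and Slc17a6, and are no measure of how much of each nucleus the tissue held. Markers of hypothalamic neurosecretory neurons (6 genes) ranged from 14.4 CPM (mouse 1) to 67.7 CPM (mouse 2), with Trh alone at 10.4 to 64.2 CPM. The relation of this list to the members was not tested. Choroid plexus markers (6 genes) summed to 9.90 to 24.6 CPM, and pituitary markers (5 genes) to 1.17 to 53.8 CPM, with Prl, Gh and Cga at 0 in at least 1 mouse. Glial lists ranged from 1471 to 2505 CPM (astrocytes), 1517 to 3245 CPM (oligodendrocytes) and 168 to 240.3 CPM (microglia), and endothelial markers from 69.8 to 145 CPM. In bulk tissue, fewer cells that make a transcript and less transcript per cell cannot be told apart.

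Per kilobase of the longest transcript, Crhbp transcripts were the most abundant of the 5 genes, and Crhr2 transcripts the least. Over the 11 mice, Crhbp averaged 16.0 ± 3.07 CPM per kb (SD), Crhr1 7.11 ± 0.41, Ucn3 4.33 ± 3.03, Crh 4.15 ± 0.64 and Crhr2 1.48 ± 0.29. Crhbp exceeded Crhr1 in 11 of 11 mice, by 1.14 on the log2 scale on average, and the lowest Crhbp level lay above the highest Crhr1 level. Crhr1 exceeded Ucn3 in 9 of 11 mice, and Crh exceeded Crhr2 in 11 of 11 mice. In exact permutation tests of the 4 neighboring pairs (two-sided, signs flipped within mice), p was 0.000977 for Crhbp against Crhr1 and for Crh against Crhr2, the smallest value that 11 mice allow. It was 0.00781 for Crhr1 against Ucn3, and these 3 adjusted p-values were at most 0.0104. The pairs were set by the order of these same means, so the p-values show only how steadily the order held between mice. They do not cover the choice of transcript length. The peptide genes Ucn3 and Crh did not differ beyond the spread (adjusted exact permutation p = 0.461). Ucn3 had the higher mean but exceeded Crh in only 4 of 11 mice. Dividing by the union of all exons instead lowered Crhr2 to 0.85 ± 0.17 CPM per kb and left the order as it was.

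The members differed widely in how much they varied between mice. Ucn3 was among the variable genes of this tissue, with an SD of log2 CPM of 0.94 over 11 mice. Of 15891 genes with a mean of at least 1 CPM, 98.3% had a smaller SD. Crhr1 was among the steady ones, with an SD of 0.08, and only 2.64% of genes had a smaller SD. Crh (0.22, above 55.7% of genes), Crhr2 (0.29, above 72.6%) and Crhbp (0.31, above 76.5%) lay above the median of all genes, 0.21. The highest level exceeded the lowest 7.59-fold for Ucn3, 2.07-fold for Crhbp, 1.88-fold for Crhr2, 1.66-fold for Crh and 1.21-fold for Crhr1. Counting error alone would give an SD of about 0.09 for Ucn3 and of 0.06 for Crhr1, compared with the observed 0.94 and 0.08. The promoter windows of Ucn3 and Crhr1 were picked for display by this spread. The GC content was 46.4% for Ucn3, 47.2% for Crhbp, 57.6% for Crhr2 and 74.8% for Crhr1. No relation of promoter composition to spread was tested.

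**Figure D1:**
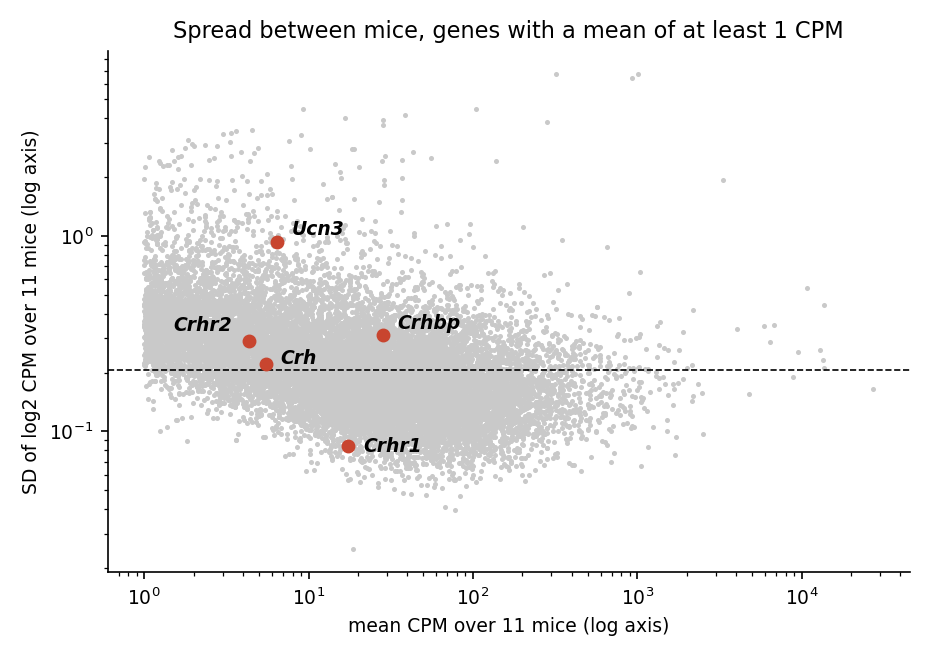
Each gray point is 1 of 15891 genes, placed by its mean CPM (x, log axis) and the SD of its log2 CPM over 11 mice (y, log axis), with the 5 CRF system genes in red and the median SD of 0.21 as a dashed line. Ucn3 (SD 0.94) stands near the top of the genes at its level and Crhr1 (SD 0.08) near the bottom.

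Ucn3, the CRF2-selective peptide, had its high values in a few mice. It reached 14.3 CPM in mouse 1 (anxious), 14.2 in mouse 2 (more anxious) and 10.5 in mouse 6 (more anxious). The less anxious mice 3, 7 and 12 had 3.79, 4.28 and 4.04 CPM, a narrow band. In the anxious mice 4, 8 and 11 it was 3.87, 6.55 and 4.18 CPM, and in the more anxious mice 9 and 10 it was 1.89 and 2.87 CPM, the lowest values of all. The more anxious mice thus spanned most of the range, 7.35 ± 5.95 CPM (mean ± SD, n = 4), compared with 4.04 ± 0.24 in less anxious mice (n = 3) and 7.23 ± 4.89 in anxious mice (n = 4). Relations of the members to summed marker lists were computed for 6 pairs of a gene and a list, and p-values were adjusted over these 6. To the markers of medial amygdala and hypothalamus, Ucn3 had Pearson r = -0.04 (permutation p = 0.906, adjusted 0.906) and Spearman rho = -0.15 (permutation p = 0.674, adjusted 0.719), and r = -0.04 without mice 3 and 7, the farthest from the median of the markers.

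Crh, the CRF peptide, spanned a narrower range. It stood at 4.26, 5.93 and 5.66 CPM in less anxious mice 3, 7 and 12, and at 6.31, 5.28, 4.33 and 4.66 CPM in anxious mice 1, 4, 8 and 11. The more anxious mice 2, 6, 9 and 10 had 5.55, 5.81, 5.44 and 7.08 CPM. Mouse 10 had the highest level and mouse 3 the lowest, and the groups overlapped, with means of 5.29 ± 0.90 (SD, n = 3), 5.15 ± 0.87 (n = 4) and 5.97 ± 0.76 CPM (n = 4). To the summed markers of the central nucleus, where many CRF neurons lie, Crh had r = 0.20 (permutation p = 0.560, adjusted 0.7104) and rho = 0.25 (permutation p = 0.465, adjusted 0.719), and r = 0.41 without mice 8 and 10.

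Crhr1, which encodes the high-affinity CRF receptor, varied least. Its level was 17.8, 17.4 and 18.5 CPM in less anxious mice, 18.5, 16.3, 18.2 and 15.6 in anxious mice, and 16.8, 18.9, 17.0 and 17.5 in more anxious mice, in the same order of mice. The group means of 17.9 ± 0.55, 17.2 ± 1.41 and 17.5 ± 0.95 CPM came from ranges that overlapped. Basolateral markers, summed, had r = -0.18 to Crhr1 (permutation p = 0.592, adjusted 0.7104) and rho = -0.13 (permutation p = 0.719, adjusted 0.719), and r = -0.06 without mice 3 and 9.

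Crhr2, the receptor for urocortins, was low, at 3.38, 4.70 and 5.56 CPM in the less anxious mice and 4.62, 4.26, 4.17 and 3.36 in the anxious mice. In the more anxious mice it was 5.60, 4.28, 4.76 and 2.98 CPM, which covers the whole range from the lowest to the highest value. Group means were 4.55 ± 1.10, 4.10 ± 0.53 and 4.405 ± 1.09 CPM. CRF2 is also made by choroid plexus, whose marker list was at 15.9 to 24.6 CPM in less anxious, 12.6 to 14.8 in anxious and 9.90 to 17.4 in more anxious mice. Across the 11 mice Crhr2 had r = 0.38 to that list (permutation p = 0.249, adjusted 0.499) and rho = 0.23 (permutation p = 0.508, adjusted 0.719), and r was 0.01 without mice 7 and 12. To the medial amygdala and hypothalamus list it had r = -0.53 (permutation p = 0.0925, adjusted 0.499) and rho = -0.55 (permutation p = 0.0816, adjusted 0.490), and r = -0.45 without mice 3 and 7.

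Crhbp, the binding protein, was the most abundant of the genes and was low in 2 mice. Mouse 10 (more anxious) had 17.4 CPM and mouse 12 (less anxious) 19.98 CPM, while the other 9 mice lay between 27.4 (mouse 6) and 36.1 CPM (mouse 4). The less anxious mice 3 and 7 had 29.4 and 30.7 CPM, the anxious mice 1, 8 and 11 had 28.1, 29.8 and 30.9 CPM, and the more anxious mice 2 and 9 had 28.7 and 34.0 CPM. Group means were 26.7 ± 5.86, 31.2 ± 3.47 and 26.9 ± 6.90 CPM, and the ranges of the groups overlapped. To the summed markers of GABA neurons, some of which make the binding protein, Crhbp had r = 0.41 (permutation p = 0.247, adjusted 0.499) and rho = -0.19 (permutation p = 0.572, adjusted 0.719), and r = -0.29 without mice 1 and 10.

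**Figure D2:**
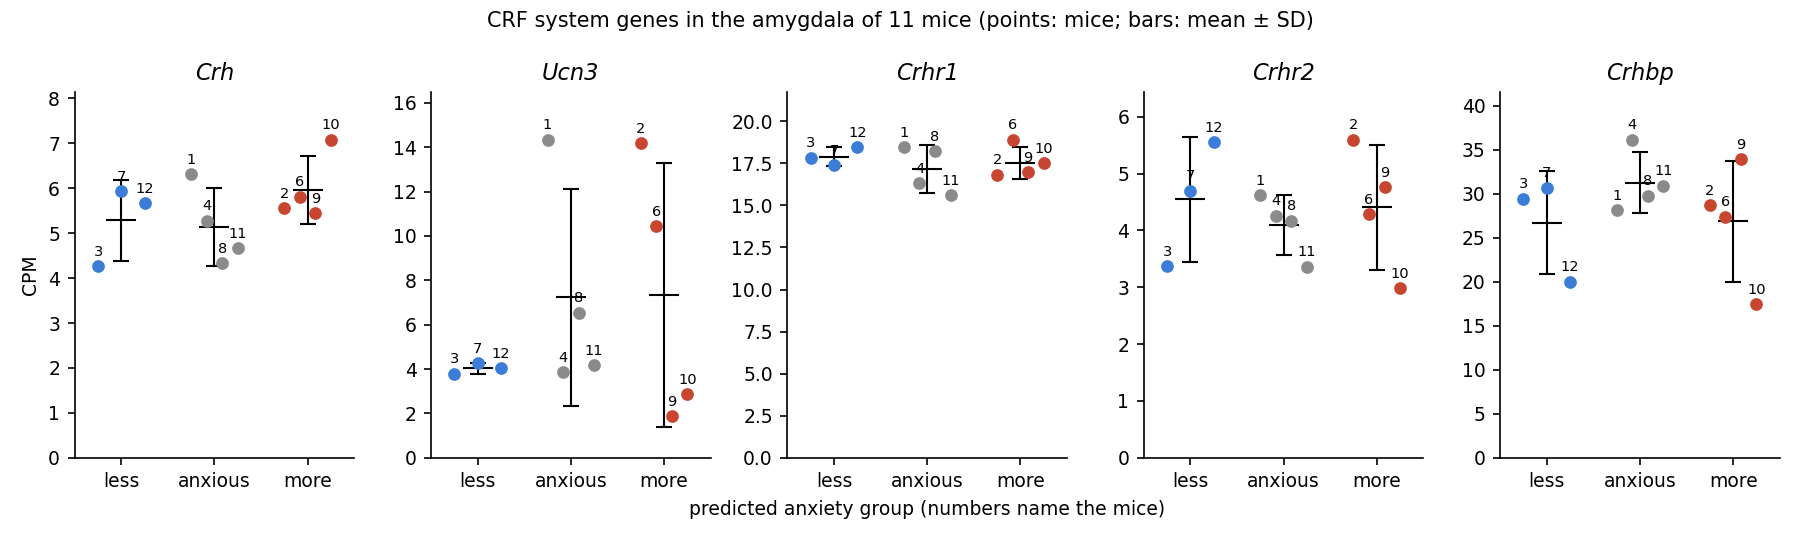
CPM (y) of each of the 5 genes by predicted anxiety group (x), with 1 numbered point per mouse and bars for the group mean ± SD (n = 3 less anxious, 4 anxious, 4 more anxious). The groups overlap in every panel. In Ucn3 the more anxious mice (1.89 to 14.2 CPM) spread wider than the anxious (3.87 to 14.3 CPM) and less anxious mice (3.79 to 4.28 CPM).

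None of the 5 genes passed the test between the groups. In edgeR's quasi-likelihood test with the PC1 score as covariate, the more anxious minus less anxious difference of log2 level was 0.17 for Crh (SE 0.19, adjusted p = 0.862) and 0.67 for Ucn3 (SE 0.81, adjusted p = 0.883). Among the receptors it was -0.05 for Crhr1 (SE 0.11, adjusted p = 0.951) and -0.08 for Crhr2 (SE 0.23, adjusted p = 0.961). For Crhbp it was -0.01 (SE 0.21, adjusted p = 0.998). The Ucn3 difference was 0.08 without mouse 2 and 1.13 without mouse 9, which hold the ends of its range in the more anxious group. Without mouse 6 the differences were 0.18 for Crh, 0.50 for Ucn3, -0.07 for Crhr1, -0.05 for Crhr2 and -0.01 for Crhbp, with adjusted p-values of 0.857 to 0.997. The more anxious mean was then 6.02 ± 0.92 CPM for Crh, 6.31 ± 6.83 for Ucn3, 17.1 ± 0.36 for Crhr1, 4.445 ± 1.33 for Crhr2 and 26.7 ± 8.44 for Crhbp (n = 3). Over all 26963 genes tested, 12 were called at an adjusted p under 0.05 (0.0445%), all higher in more anxious mice, and 2383 had an unadjusted p under 0.05 (8.84%), but none of the 5 members did, the smallest unadjusted p being 0.384. No member separated the less anxious from the more anxious mice without overlap, as 10.0% of the 15891 genes of at least 1 CPM did.

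The precision differed between the genes. For Crhr1 the 95% interval of the more to less anxious ratio was 0.82 to 1.14. The interval was 0.85 to 1.48 for Crh, 0.67 to 1.32 for Crhr2 and 0.72 to 1.37 for Crhbp. For Ucn3 it ran from 0.43 to 5.87, so that a difference of several-fold in its transcript lay within the interval.

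The other contrasts of the same fit, which share mice with the first, gave no call among the members either. Between anxious and less anxious mice, the log2 differences were -0.04 for Crh, 0.77 for Ucn3, -0.07 for Crhr1, -0.18 for Crhr2 and 0.21 for Crhbp, with adjusted p-values of 0.989 to 0.995. That contrast called 1 gene in all (0.00371%) and gave 1278 an unadjusted p under 0.05 (4.74%). Between more anxious and anxious mice, the differences were 0.21, -0.10, 0.03, 0.10 and -0.22 in the same order of genes, each with an adjusted p of 0.999. That contrast had 0 calls over all genes (0%) and 1231 unadjusted (4.57%). Without mouse 6 its differences were 0.22, -0.24, -0.01, 0.17 and -0.21 in the same order, with no member called. In the test of any change across the 3 groups, 2 genes were called (0.00742%) and 1713 had an unadjusted p under 0.05 (6.35%), while the members had adjusted p-values of 0.957 to 0.989.

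The behavior of the mice gave the independent comparison. Open-arm time in the EPM ranged from 2.33% (mouse 2) to 29.2% (mouse 6), total entries from 6 (mouse 2) to 42 (mouse 12), time in the light from 12.4% (mouse 9) to 46.6% (mouse 6) and distance in the light from 16.6% (mouse 2) to 41.9% (mouse 6). Mouse 6 is labelled more anxious. In the SIT, the box:zone ratio ranged from 0.49 (mouse 2) to 2.62 (mouse 3) at 10 min. The paper describes box time as direct and zone time as distant socialization with the stranger mouse. Slopes below are log2 changes for an increase of the measure by 1 SD.

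Of 35 slopes, for 5 genes on 7 measures, none passed the adjusted threshold (lowest adjusted p = 0.533), and 2 had an unadjusted p under 0.05, both of Crhr2 on the box:zone ratio. The slope of Crhr2 was -0.20 at 10 min (SE 0.08, unadjusted p = 0.0172, adjusted p = 0.533) and -0.18 at 5 min (SE 0.08, unadjusted p = 0.0409, adjusted p = 0.742). At 3 min, without mouse 4, which has no value, it was -0.13 (SE 0.09, unadjusted p = 0.178, adjusted p = 0.7995). The 3 measures come from nested times of a single test and are not separate evidence. With the 10-min ratio below 0.7, mice 2, 4 and 12 had 5.60, 4.26 and 5.56 CPM of Crhr2. With a ratio above 1.3, mice 3, 8, 10 and 11 had 3.38, 4.17, 2.98 and 3.36 CPM. Between these, mice 1, 6, 7 and 9 had 4.62, 4.28, 4.70 and 4.76 CPM. The limits of 0.7 and 1.3 were set after the values had been seen, so this listing only describes the slope and adds no support. The 10-min slope kept its sign and an unadjusted p under 0.05 with each of the 11 mice left out in turn (-0.22 to -0.18, unadjusted p = 0.0165 to 0.0497), but its unadjusted p was 0.167 with mouse 5 included. The 5-min slope had an unadjusted p under 0.05 in 7 of the 11 omissions, but not without mouse 2 (0.124), mouse 3 (0.118), mouse 7 (0.0588) or mouse 12 (0.0881), and its unadjusted p was 0.253 with mouse 5 included. Among all genes, 6 were called on the 10-min ratio (0.0223%) and 2170 had an unadjusted p under 0.05 (8.05%). On the 5-min ratio these were 3 genes (0.0111%) and 1770 (6.56%), and on the 3-min ratio 4 of 26651 genes (0.0150%) and 2039 (7.65%).

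Ucn3 had its smallest p on the EPM entries, with a slope of -0.42 (SE 0.22, unadjusted p = 0.0858, adjusted p = 0.778). The 2 mice with the fewest entries, mouse 2 (6 entries, 14.2 CPM) and mouse 1 (15 entries, 14.3 CPM), had the highest Ucn3. Mouse 6, with 36 entries, had 10.5 CPM, and mouse 12, with 42 entries, had 4.04 CPM. Without mouse 2 the slope was -0.22 (unadjusted p = 0.390), without mouse 1 it was -0.29 (unadjusted p = 0.201), and without mouse 6 it was -0.61 (unadjusted p = 0.00952, adjusted p = 0.672). On the box:zone ratio Ucn3 had slopes of -0.62 at 3 min (SE 0.35), -0.40 at 5 min (SE 0.27) and -0.39 at 10 min (SE 0.28), with adjusted p-values of 0.742, 0.845 and 0.755. On open-arm time its slope was -0.17 (SE 0.28, adjusted p = 0.977). Over all genes, EPM entries called 0 genes with edgeR (0%, and 1879 unadjusted, 6.97%) and open-arm time 0 genes (0%, and 1575 unadjusted, 5.84%).

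**Figure D3:**
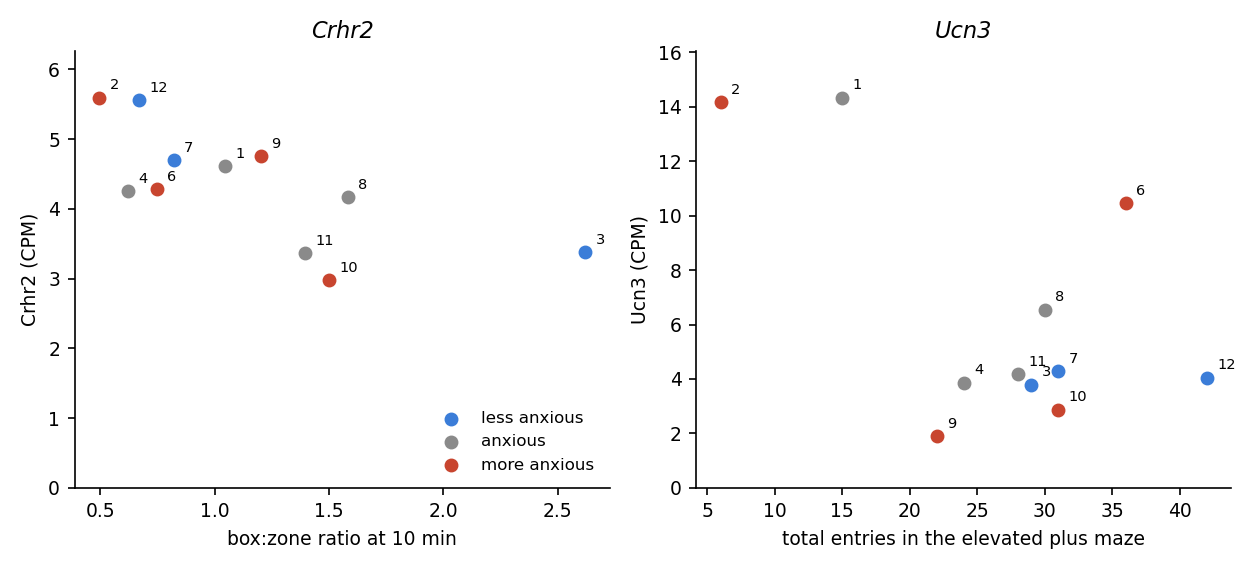
CPM (y) of Crhr2 against the 10-min box:zone ratio (left) and of Ucn3 against total EPM entries (right), 1 numbered point per mouse, colored by predicted anxiety group. Crhr2 falls from 5.60 CPM in mouse 2 to 3.38 CPM in mouse 3 as the ratio rises, and the high Ucn3 values of mice 1 and 2 sit at the fewest entries.

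In the light box Ucn3 had slopes of 0.24 on time (SE 0.27, unadjusted p = 0.394) and 0.10 on distance (SE 0.26, unadjusted p = 0.702). Without mouse 2 these were 0.61 (unadjusted p = 0.0124, adjusted p = 0.9996) and 0.64 (unadjusted p = 0.00798, adjusted p = 0.973). Crhr1 had slopes between -0.01 (3-min ratio) and 0.05 (light-box time and distance), each with an SE of 0.04 to 0.05. Crh ranged from -0.11 (5- and 10-min ratios) to 0.02 (light-box time), with an SE of 0.07 to 0.08. Crhbp ranged from -0.12 on EPM entries (SE 0.08, adjusted p = 0.832) to 0.03 on the 3-min ratio (SE 0.08). In the LD test over the 11 mice no member had an unadjusted p below 0.229, over all genes 0 were called on light-box distance (0%, and 1565 unadjusted, 5.80%), and 2 on light-box time (0.00742%, and 958 unadjusted, 3.55%).

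**Figure D4:**
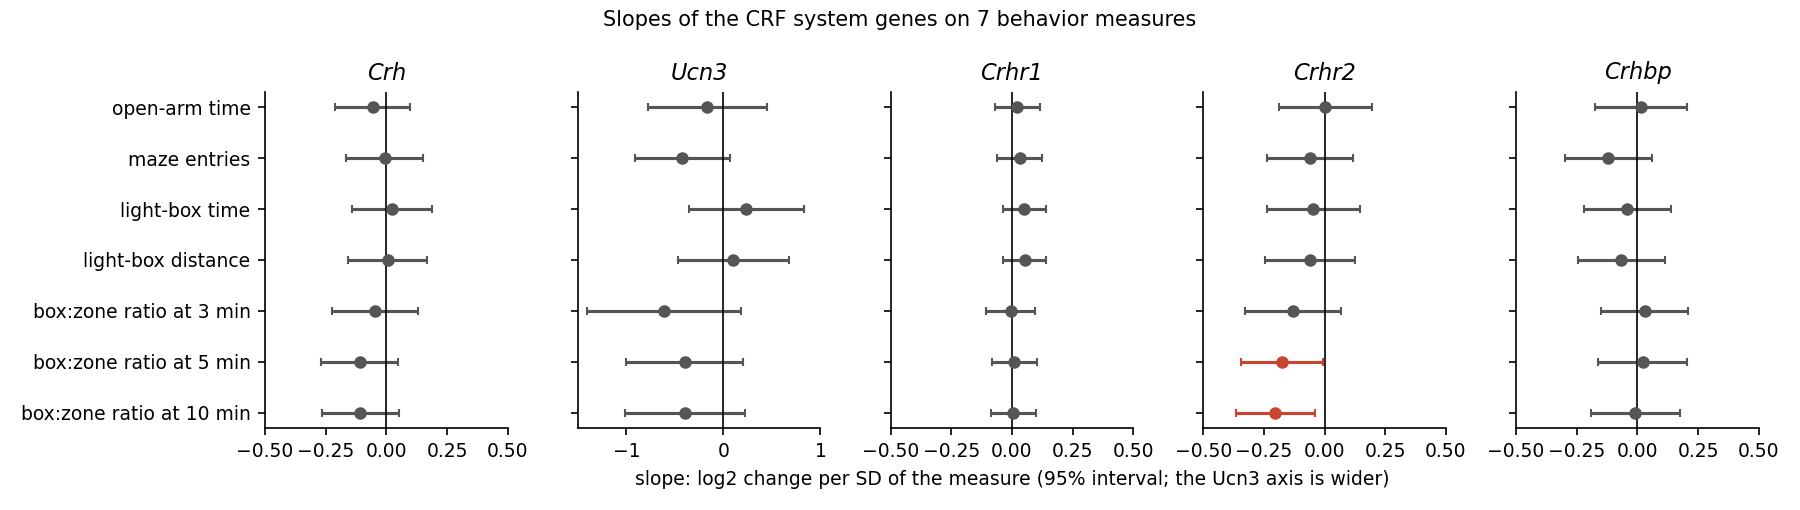
Slopes (x, log2 change per SD of the measure, with 95% intervals) of the 5 genes on 7 behavior measures (y), from edgeR fits over 11 mice (10 at 3 min), with intervals that exclude 0 in red. Only Crhr2 on the 5- and 10-min box:zone ratios has such an interval, before any adjustment over genes, and the Ucn3 intervals are the widest.

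The genes around the system were taken from 5 lists, of other ligands, prohormone processing, Gs and cAMP signaling, Gq and ERK signaling, and receptor desensitization. Of their 45 genes, all tested, 1 was called between more and less anxious mice and 10 had an unadjusted p under 0.05 (22.2%, compared with 8.84% of all genes), 4 higher and 6 lower. The median log2 difference of the 45 genes was -0.01, and that of all genes 0.00. Since the groups follow PC2, these counts describe the libraries and test no pathway.

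The called gene was Pcsk1n, whose product proSAAS inhibits prohormone convertase 1, the enzyme that cleaves many neuropeptide precursors. It was at 124, 171 and 173 CPM in less anxious mice 3, 7 and 12, at 170, 270, 258 and 219 CPM in anxious mice 1, 4, 8 and 11, and at 393, 390, 512 and 312 CPM in more anxious mice 2, 6, 9 and 10. Every more anxious mouse lay above every other mouse. The log2 difference between more and less anxious mice was 1.33 (SE 0.19, adjusted p = 0.0389), and the test of any change gave an adjusted p of 0.0805. The call was lost when mouse 2, 3, 4, 7, 8, 9, 11 or 12 was left out (adjusted p of 0.0585 to 0.378) while the difference stayed between 1.05 and 1.44. The neuronal markers Rbfox3, Snap25, Syt1 and Tubb3 summed to 3343 to 3641 CPM in less anxious, 3277 to 3811 CPM in anxious and 3449 to 4395 CPM in more anxious mice, and their part in the Pcsk1n result was not tested. The convertase itself, Pcsk1, had a difference of -0.21 (SE 0.11, adjusted p = 0.625), and Pam, which amidates peptides such as CRF, had -0.17 (SE 0.11, adjusted p = 0.7098). Of the 6 processing genes, 1 had an unadjusted p under 0.05 (compared with 8.84% of all genes), and their median difference was -0.09.

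The other ligands of the family had few counts. Ucn, which encodes urocortin 1 and is known mainly from the Edinger-Westphal nucleus, had 4 to 33 counts per mouse. It was at 0.19, 0.28 and 0.10 CPM in less anxious mice 3, 7 and 12, and at 0.12 to 0.30 CPM in anxious mice. In more anxious mice it was at 0.23, 0.87, 0.75 and 0.64 CPM, of which 3 values lay above those of all other mice. The log2 difference of 1.60 (SE 0.50) had an unadjusted p of 0.0062 and an adjusted p of 0.344. Ucn2, which encodes urocortin 2, had 0 to 7 counts per mouse and a difference of 0.16 (SE 0.74, adjusted p = 0.981).

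Of 18 genes of the Gs and cAMP arm, 3 had an unadjusted p under 0.05, compared with 8.84% of all genes. All 3 were lower in more anxious mice, with a list median of -0.01. They were the adenylyl cyclases Adcy5 (-0.40, SE 0.14, adjusted p = 0.407) and Adcy9 (-0.43, SE 0.19, adjusted p = 0.527) and the protein kinase A subunit Prkar2a (-0.32, SE 0.13, adjusted p = 0.502). Adcy5 is the major cyclase of the striatum, and it was at 177 to 281 CPM in less anxious mice, at 162 to 206 in anxious mice and at 176 to 193 in more anxious mice. The striatal marker list was at 180 to 529, 123 to 244 and 130 to 358 CPM in the same groups, and its part in the Adcy5 difference was not tested.

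Of 13 genes of the Gq and ERK arm, 1 was higher and 1 lower at an unadjusted p under 0.05, which 8.84% of all genes reached. Itpr1, the IP3 receptor that releases calcium, was at 261 to 302 CPM in less anxious and 125 to 245 CPM in more anxious mice (-0.51, SE 0.19, adjusted p = 0.465). Mapk3, which encodes ERK1, was at 167 to 248 and 259 to 325 CPM (0.39, SE 0.13, adjusted p = 0.381). Map2k2, the kinase above it, had a difference of 0.23 (SE 0.12, adjusted p = 0.623).

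Among 6 genes that switch receptors off, 3 had an unadjusted p under 0.05, compared with 8.84% of all genes. In none of the 3 did less and more anxious mice overlap. They were named for their small p across these same groups, so this lack of overlap is no separate evidence. The differences of the β-arrestins had opposite signs. Arrb2 was at 35.5 to 46.5 CPM in less anxious and 49.99 to 56.1 CPM in more anxious mice (0.32, SE 0.09, adjusted p = 0.301), and Arrb1 at 234 to 278 and 185 to 214 CPM (-0.35, SE 0.10, adjusted p = 0.307). Grk5, a receptor kinase, was at 9.57 to 10.5 and 6.83 to 8.10 CPM (-0.42, SE 0.13, adjusted p = 0.365). Over the pathway genes of at least 1 CPM, 8 of 43 (18.6%) separated these groups without overlap, compared with 10.0% of all such genes.

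**Figure D5:**
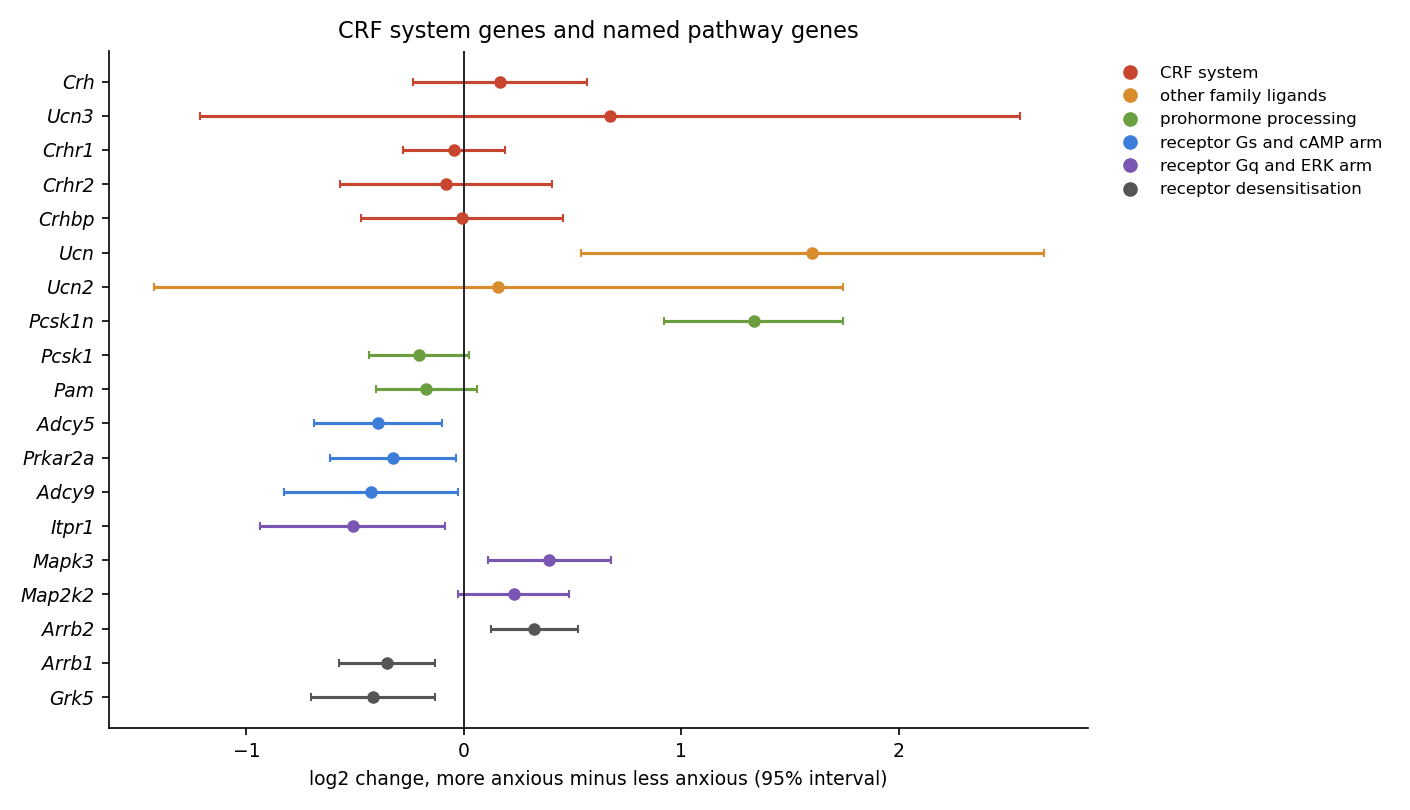
Difference of log2 level between more and less anxious mice (x, with 95% intervals from edgeR) for the 5 CRF system genes and the 3 genes of each list with the smallest p (both genes for the other ligands), colored by list. The members' intervals all include 0, and Pcsk1n (1.33) is the only gene shown with an adjusted p under 0.05.

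Against behavior, no pathway gene was called on any of the 7 measures (lowest adjusted p = 0.515, on the 3-min ratio). EPM entries gave 6 of the 45 genes an unadjusted p under 0.05 (13.3%, compared with 6.97% of all genes), 5 of them with a positive slope, and the 5-min ratio gave 0, compared with 6.56% of all genes.

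Levels of the members were also compared with each other. Among 10 pairs of genes over 11 mice, 1 had a permutation p under 0.05, and none an adjusted p below 0.203. Crhbp and Crhr1 had Spearman rho = -0.70 (permutation p = 0.0203, adjusted 0.203) and Pearson r = -0.42 (permutation p = 0.179, adjusted 0.696), and r = -0.48 without mice 6 and 11. Crhbp and Crh had rho = -0.58 (permutation p = 0.0639, adjusted 0.319) and r = -0.54 (permutation p = 0.0811, adjusted 0.696), and r = -0.65 without mice 3 and 8. Ucn3 and its receptor gene Crhr2 had r = 0.37 (permutation p = 0.263, adjusted 0.696) and rho = 0.32 (permutation p = 0.344, adjusted 0.681), and r was 0.08 without mice 1 and 2.

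Each member was also set beside the genes whose log2 CPM was most like its own over the 11 mice, among 12159 genes of at least 5 CPM. For Ucn3 these were Pnoc (r = 0.93), the precursor of the neuropeptide nociceptin, Gm5148 (r = 0.89) and Cartpt (r = 0.88), the precursor of the CART peptides. For Crhbp they were Galnt9 (r = 0.93), Cant1 (r = 0.91) and the potassium channel gene Kcng1 (r = 0.91), and for Crh they were Sh3glb1 (r = 0.92), Zfp691 (r = 0.90) and Gm35040 (r = 0.88). Crhr1 was most like the transcription factor gene Pbx3 (r = 0.90), Hmgb3 (r = 0.88) and Ift46 (r = 0.86), and Crhr2 most like the calcium channel subunit gene Cacna2d2 (r = 0.84), the kinesin gene Kif17 (r = 0.84) and 4933404O12Rik (r = 0.80). Spearman rho with these genes was 0.66 to 0.89 for Ucn3, 0.69 to 0.82 for Crhbp and 0.88 to 0.93 for Crh. It was 0.84 to 0.91 for Crhr1 and 0.74 to 0.80 for Crhr2. The levels of these genes come from the same 11 libraries, and the highest of 12159 correlations is high by selection.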

How the data were processed

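Amygdala mRNA of 12 mice was sequenced as stranded libraries, read from a single end over 75 bp. The authors estimated transcript abundance with Salmon, summed it to genes with tximport and deposited estimated counts (expected counts), as whole numbers without normalization, after alignment to mm10 for quality checks. Tool versions, the annotation release and the strand setting of the counting are not given in the sources used here. All 12 sample columns were used, and 0 other sample columns were present. Gene names and coordinates came from GENCODE M21 (GRCm38), in which 47310 of 47729 IDs had an entry, and promoter sequences from RefSeq (GRCm38.p6).

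Groups and behavior measures were taken from the labels. Group contrasts used edgeR 4.0.16 (R 4.3.3), with the quasi-likelihood F-test, robust spread estimates, TMM factors, a filter that kept genes reaching 10 reads summed over the 11 mice, and the PC1 score of variance-stabilized counts (DESeq2 1.42.0) as covariate. Each of 7 measures was standardized and fitted alone without a covariate. Benjamini-Hochberg adjustment ran over all genes tested, and an adjusted p under 0.05 was called. Standard errors were derived from the F statistic, and intervals are at 95%. Log2 CPM used a prior count of 2. Correlations used 100000 permutations, two-sided. The alternatives were DESeq2's size factors, DESeq2, limma-voom (limma 3.58.1), other count filters, spread estimates without the robust option, other covariates, groups as a trend, ranks, mouse 5 included and each mouse left out. The edgeR test of any change and the slope on open-arm time were also run on counts simulated with known changes. There the groups were the labelled ones and PC1 came from the real counts. The making of groups from PC2 was thus not simulated. The remaining steps ran in Python 3.11.15 with scipy 1.17.1, pandas 2.3.3, numpy 2.4.6 and, for plots, matplotlib 3.10.9.

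The members, gene lists, marker lists and tests were chosen with earlier results of these data known. The genes named are the 5 members, the 3 genes of each pathway list with the smallest unadjusted p for any change across the groups, every list gene called, and the 3 genes most like each member (Pearson r, mean of at least 5 CPM). The 6 relations of members to marker lists and the promoters shown were chosen after values had been seen. Each mouse is 1 animal and 1 library, and intervals cover the spread between these mice only.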

Additional observations from a re-analysis of the deposited data

How the results depend on the processing

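No member was called in any comparison under any alternative (lowest adjusted p = 0.273). Of 425 values of the members under alternatives that kept the 11 mice or added mouse 5, 412 kept their direction and 13 reversed. Of 545 values with a mouse left out, 45 reversed. Mean levels with DESeq2's size factors moved by less than 1 SD. Counts were low for Ucn (4 to 33 per mouse) and Ucn2 (0 to 7). No paired analysis was possible because the replicate numbers only name the mice.

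The reversed slopes were, with ranks of the measure, 0.030 (Crh on entries), -0.0052 (Crh on light distance) and -0.00048 (Crhbp on open-arm time). With PC1 as covariate they were 0.016 (Crhr1 at 3 min), -0.025 (Crhr2 on open-arm time), -0.0022 (Crhbp on open-arm time) and 0.021 (Crhbp at 10 min). With mouse 5 they were 0.0063 (Crhr1 at 3 min), 0.049 (Crhr2 on light distance) and 0.047 (Crhr2 on light time). Without a count filter Crhr2 on open-arm time was -2.2e-05. Without a covariate, Ucn3 between more anxious and anxious mice was 0.014 and Crhbp between more and less anxious mice 0.0041. The causes were not tested.

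With a mouse left out, anxious against less anxious ran from -0.18 to 0.11 for Crh, -0.13 to 0.97 for Ucn3 and -0.32 to 0.0059 for Crhr2. More against anxious ran from -0.69 to 0.58 for Ucn3, -0.019 to 0.080 for Crhr1 and -0.018 to 0.23 for Crhr2. More against less anxious ran from -0.22 to 0.11 for Crhr2, -0.22 to 0.17 for Crhbp and -0.25 to 0.51 for Ucn2. Without mouse 10 or mouse 12 the Crhr2 difference was 0.061 and 0.11. On entries, Crh ran from -0.028 to 0.023 and Crhr2 from -0.16 to 0.036. On open-arm time, Ucn3 ran from -0.45 to 0.076, Crhr2 from -0.061 to 0.073 and Crhbp from -0.071 to 0.072. On light distance, Crh ran from -0.023 to 0.048, Ucn3 from -0.055 to 0.64 and Crhr2 from -0.096 to 0.011, and on light time Crhr2 from -0.069 to 0.00027. At 3 min, Crh ran from -0.099 to 0.0045, Crhr1 from -0.019 to 0.0063 and Crhbp from -0.044 to 0.084. Crhbp ran from -0.022 to 0.066 at 5 min and from -0.048 to 0.035 at 10 min, and Crhr1 from -0.0031 to 0.016 at 10 min.

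Counts over all genes moved more. Between more and less anxious mice 12 genes were called, compared with 304 by DESeq2 (246 of them higher), 1 by limma-voom, 25 without a count filter, 2 at a mean of at least 1 CPM, 2 without the robust option, 3 without a covariate, 22 with groups as a trend, and 0 to 17 with a mouse left out. Anxious against less anxious gave 11 (DESeq2), 0 (limma-voom), 0 (mean of at least 1 CPM) and 0 (no covariate), and 0 to 2 with a mouse left out. More against anxious gave 48 by DESeq2, and 0 to 2 with a mouse left out. Any change gave 187 (DESeq2), 0 (limma-voom), 9 (no filter), 0 (1 CPM), 1 (not robust), 0 (no covariate), 22 (trend), and 0 to 5 with a mouse left out.

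For the measures, DESeq2 called 49 genes (open-arm time), 49 (entries), 22 (light distance), 13 (light time), 146 (3 min), 31 (5 min) and 81 (10 min). Limma-voom called 0 (light time), 1 (3 min) and 0 (5 min). Without a count filter 1 (open-arm time), 4 (light time), 11 (3 min), 7 (5 min) and 10 (10 min) were called, and at a mean of at least 1 CPM 0 (light time), 1 (3 min), 0 (5 min) and 0 (10 min). DESeq2's size factors gave 1 for open-arm time. Without the robust option there were 2 (open-arm time) and 1 (light time). With PC1 as covariate there were 0 (light time), 2 (3 min), 0 (5 min) and 2 (10 min), with ranks 0 (light time), 0 (5 min) and 0 (10 min), and with mouse 5 there were 1 (open-arm time), 1 (light time) and 6 (5 min). With a mouse left out, the counts were 0 to 3 (open-arm time), 0 to 5 (entries), 0 to 14 (light distance), 0 to 16 (light time), 1 to 6 (3 min), 1 to 5 (5 min) and 1 to 9 (10 min).

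Pcsk1n between more and less anxious mice stayed between 1.31 and 1.36 under other settings with 11 mice, but its adjusted p was 0.0767 by limma-voom, 0.0557 at a mean of at least 1 CPM, 0.0656 without the robust option and 0.0545 without a covariate.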

Other observations

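Mouse 5, which the labels put in no group and the study removed as an outlier, had low CRF receptor transcripts. When all 12 libraries were scaled together, both receptor genes lay below their levels in every other mouse. Crhr2 was at 1.89 CPM (62 counts) in mouse 5, compared with 2.98 to 5.63 CPM in the others, and Crhr1 at 13.4 CPM (439 counts), compared with 15.6 to 18.8 CPM. Crh was also lowest in mouse 5, at 3.96 CPM (130 counts), below 4.24 to 7.08 CPM in the others. Ucn3 (5.24 CPM) and Crhbp (26.8 CPM) lay within the ranges of the other mice, 1.89 to 14.3 and 17.4 to 36.1 CPM. The library of mouse 5 had a read on 23768 genes, compared with 26378 to 28196 in the others, at a total of 32682574 counts. How many of all genes were lowest in this library was not counted, so the low levels cannot be called particular to the CRF system. Its 10-min box:zone ratio was 0.82, and the 4 mice with a lower ratio had 4.26 to 5.60 CPM of Crhr2 when scaled without it.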
